A study of Homo sapiens with 12 samples.

Results

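The transcription factor ATF4 and 40 further genes of its amino acid response were followed through Ras-induced senescence in human fibroblasts with and without knockdown of the interleukin-1 receptor. The 41 genes were taken from a list of names: ATF4 with its partner and feedback factors, stress effectors, enzymes of amino acid and mitochondrial one-carbon metabolism, amino acid transporters and cytosolic aminoacyl-tRNA synthetases. Of these, 40 had at least 10 normalized counts in at least 2 of the 12 libraries and are the genes described here, out of 13924 genes that passed the same filter and 27106 in the table. VLDLR-AS1 was the 1 listed gene that did not pass, with a second-highest value of 7.81. The lowest genes that passed were CBS, with a second-highest value of 86.0, and CTH, with 267.

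ATF4 is made mainly by control of translation. When amino acids run short or unfolded protein builds up, kinases phosphorylate the initiation factor eIF2, general protein synthesis slows, and the ATF4 messenger RNA is translated more, so the level of that messenger RNA need not follow the level of the protein. ATF4 pairs with C/EBP proteins and binds composite sites, called CARE or amino acid response elements, in front of genes for amino acid synthesis, uptake and charging onto tRNA. CHOP (DDIT3) and TRIB3 lie downstream of it, and TRIB3 acts back on ATF4 as an inhibitor.

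All libraries came from IMR90, a human lung fibroblast line, carrying hTERT, the catalytic subunit of telomerase, and an oncogenic Ras fused to a tamoxifen-responsive estrogen receptor domain (RasERT2). The groups were shIL1R cells, in which a hairpin RNA targets the interleukin-1 receptor, on days 0, 4 and 10 of Ras induction, and shScr cells, which carry a scramble hairpin RNA, on the same days. The labels call day 0 cells growing controls and give, for all samples together, doxycycline at 0.5 ug/ml to switch on the hairpins, then 200 nM tamoxifen to activate Ras or ethanol as its control. Each of the 6 groups held 2 libraries of poly(A) RNA. The design text mentions 2 independent receptor hairpins, and the labels do not say whether replicates 1 and 2 carry different ones or come from separate cultures, so p-values measure only the spread between these samples. Both replicates of a group are given below in the order 1, 2.

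Recovered depth ran from 24140324 to 30127727 reads per library. IL1R1, the targeted receptor, had 731 and 378 normalized counts in shIL1R cells against 1509 and 1552 in shScr cells at day 0, 272 and 86.4 against 1546 and 1423 at day 4, and 295 and 279.9 against 1580.1 and 1239.6 at day 10. All 14 fibroblast markers examined were at 10 or more in both libraries of every group. Of 6 leukocyte markers CD3E was at 0 throughout and PTPRC reached at most 3.04. Their sum was 18.1 to 44.4 in shIL1R cells and 129 to 156 in shScr cells at day 10, and at most 18.6 at the earlier days. LAPTM5 alone held 37.2 and 6.77 of it in shIL1R cells and 142 and 119.5 in shScr cells at day 10. The 7 endothelial markers summed to 1220 to 3282 over the 12 libraries, most of it TEK at 992 to 3249, while CDH5 was at 0 throughout. TIE1, another of them, had 325 and 199 normalized counts in shIL1R cells and 539 and 403 in shScr cells at day 10. Its day 0 libraries held 14.6 to 32.5. KDR went the other way between the genotypes at day 10, with 216 and 102 in shIL1R cells and 96.8 and 51.6 in shScr cells. Its day 0 libraries held 1.67 to 12.9. VWF also rose, to 50.6 to 63.7 over the day 10 libraries. The 6 epithelial markers summed to 48.2 to 176 over the 12 libraries. The 6 smooth muscle and neural markers summed to 5043 to 7755, most of it TUBB3 at 3766 to 6926. The part of these markers in the results was not tested. Replicate 2 of shIL1R day 10 stood apart from its partner. On the first principal component of all tested genes the shIL1R day 10 libraries lay at 77.2 and 45.9 and the shScr day 10 libraries at 90.5 and 89.2, with the day 4 libraries between −11.2 and 2.80 and the day 0 libraries between −74.3 and −68.8. Counts at day 10 against day 0 in shIL1R cells, and the values of the genes described there, are therefore also given without that library.

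The promoters of the 40 genes were searched for the core of the composite element, TGATGNAA, and for the cyclic AMP response element, TGACGTCA, which ATF4 and related factors also bind. RefSeq promoter windows of the GRCh38.p14 build, 250 bases before each annotated start, were at hand for 32 of the 40 genes, and both strands were read. TGATGNAA occurred in front of 6 of the 32 genes (18.8%), against 3.89% of 27303 genes with a window. TGACGTCA occurred in front of 1 of the 32 (3.12%), against 2.03% of all genes. Some genes have more than 1 window. Counted by window, TGATGNAA was in 6 of 50 (12%), against 3.14% of 35114 windows, and TGACGTCA in 1 of 50 (2%), against 1.65%. The windows below, 80 bases each, hold these matches and are shown on the strand of the gene, 5′ to 3′, with the match in capitals (TTGCATCA and TTTCATCA are TGATGNAA read from the other strand). They are a description of letters in these windows and show no binding.
CEBPG (chr19:33374033-33374112, plus strand): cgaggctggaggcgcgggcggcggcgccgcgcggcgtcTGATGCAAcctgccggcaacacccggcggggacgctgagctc
PPP1R15A (chr19:48872327-48872406, plus strand): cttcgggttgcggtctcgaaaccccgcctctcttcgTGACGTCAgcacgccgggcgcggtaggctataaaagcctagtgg
CHAC1 (chr15:40953226-40953305, plus strand): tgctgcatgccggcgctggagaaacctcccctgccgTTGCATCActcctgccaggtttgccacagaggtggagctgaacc
ASNS (chr7:97872433-97872512, minus strand): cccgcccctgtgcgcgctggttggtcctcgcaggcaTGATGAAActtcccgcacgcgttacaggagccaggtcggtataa
AARS (chr16:70289650-70289729, minus strand): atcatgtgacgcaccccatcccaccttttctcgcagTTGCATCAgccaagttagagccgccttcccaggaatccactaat
GARS (chr7:30594798-30594877, plus strand): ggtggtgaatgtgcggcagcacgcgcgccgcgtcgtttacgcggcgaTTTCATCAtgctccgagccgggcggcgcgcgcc
IARS (chr9:92293698-92293777, minus strand): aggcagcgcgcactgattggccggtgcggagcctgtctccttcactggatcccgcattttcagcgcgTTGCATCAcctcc

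The matched genes belong to different roles and did not share a time course. ASNS, with its element 68 to 61 bases before the start, fell by day 10. CHAC1, with its match 209 to 202 bases before the start, was highest at day 4. The match in front of CEBPG lay 42 to 35 bases before the start, and CEBPG was called in no comparison. PPP1R15A, with the cyclic AMP response element 58 to 51 bases before the start, rose by day 10. Among the synthetases the match lay 187 to 180 bases before the start of AARS, 33 to 26 before GARS and 13 to 6 before IARS. CEBPG, ASNS and GARS each have 2 annotated windows. In each of these genes the match lay in only 1 of them, and the distance is from the start of that window.

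By day 10 of Ras induction some amino acid response genes had risen and others had fallen, in both genotypes. The regulators and stress effectors DDIT3, TRIB3, DDIT4, NUPR1 and PPP1R15A rose 2-fold or more, the serine synthesis enzymes PHGDH, PSAT1 and PSPH and the cystine transporter SLC7A11 fell 2-fold or more, and ATF4 itself was called in no comparison. Under limma on log2(normalized count + 1), with a call below an adjusted p of 0.05, 23 of 40 genes were called in shIL1R cells at day 10 against day 0 (9 higher, 14 lower) and 25 of 40 in shScr cells (16 higher, 9 lower). Over all genes tested 60.3% were called in shIL1R cells (30% higher, 30.3% lower) and 63.8% in shScr cells (32.5% higher, 31.3% lower), so the number of calls among the 40 genes was close to the background. The median log2 fold change was −0.22 over the 40 genes and 0.01 over all genes in shIL1R cells, and 0.16 and 0.01 in shScr cells. Without replicate 2 of shIL1R day 10, 25 genes were called in shIL1R cells (12 higher, 13 lower) and the median was −0.01. In bulk RNA a lower level in all cells and fewer cells at a high level cannot be told apart.

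**Figure D1:**
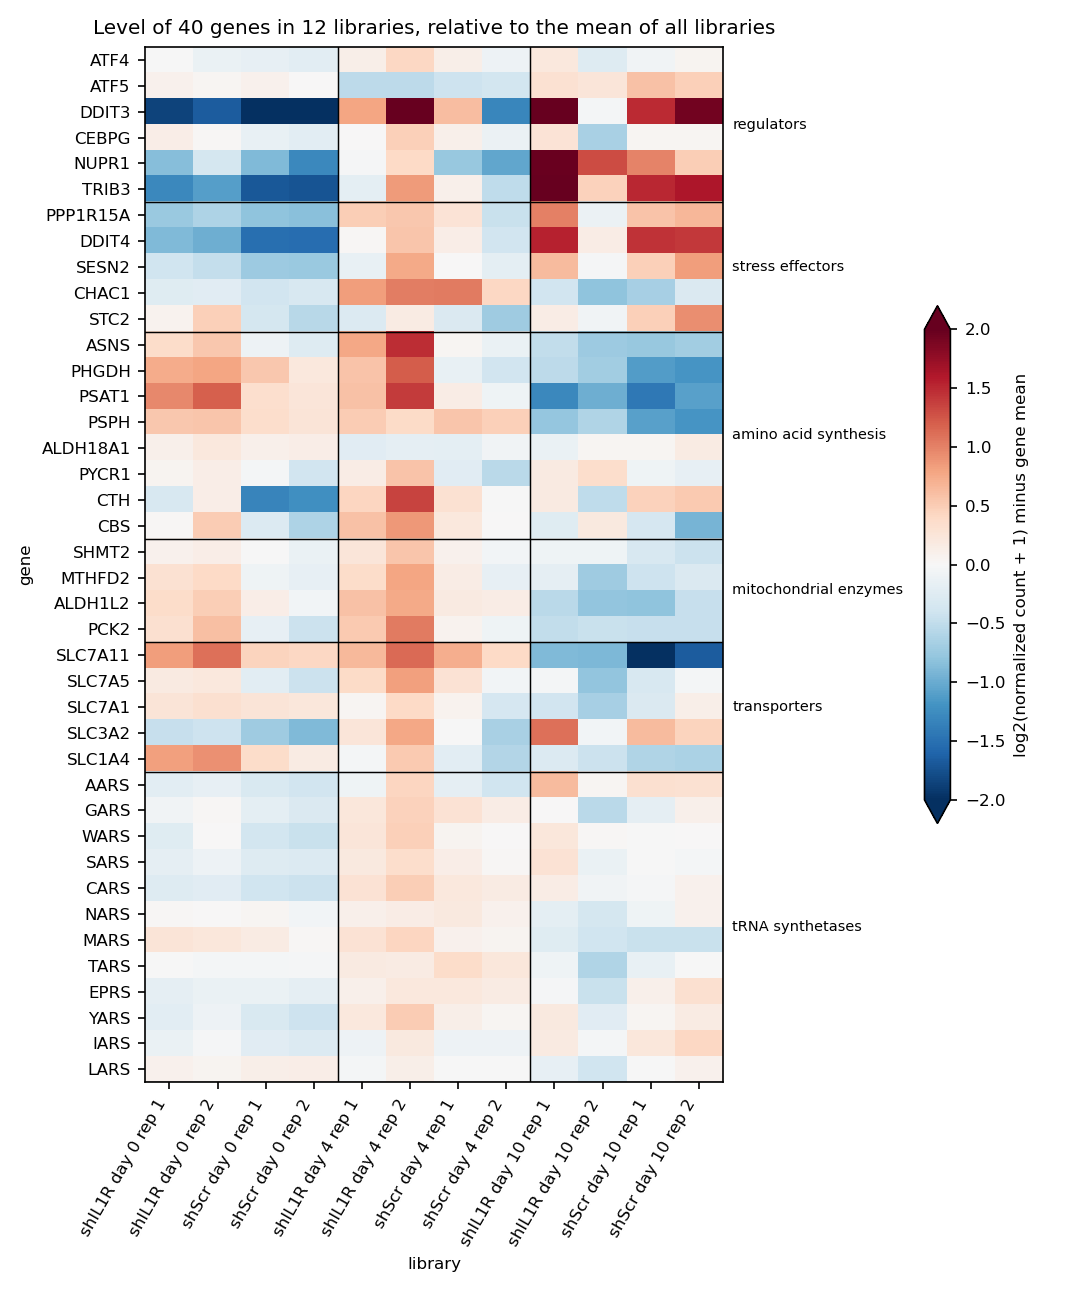
Level of the 40 genes (rows, by role) in the 12 libraries (columns, in order of day with shIL1R left of shScr at each day) as log2(normalized count + 1) minus the mean of the gene over all libraries, from −2 (blue) to 2 (red), with values beyond cut to the ends. DDIT3, TRIB3 and DDIT4 are lowest at day 0, while PSAT1, PHGDH and SLC7A11 are lowest at day 10.

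The heat map of the 40 genes shows the roles as blocks, and no block is uniform. Among the regulators and effectors ATF5 is lowest at day 4 and CHAC1 at day 10, and among the enzymes and transporters SLC3A2 is higher at day 10 than at day 0. The synthetase block is paler.

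Among the 6 regulators 3 were higher at day 10 in shIL1R cells and 4 in shScr cells, and 0 were lower. The counts by role below are to be read beside the 30% higher and 30.3% lower among all genes in shIL1R cells, and the 32.5% and 31.3% in shScr cells. The regulator count in shIL1R cells was again 3 higher and 0 lower without replicate 2 of day 10, where all genes gave 30.7% higher and 30.7% lower. ATF4 messenger RNA lay between 8553 and 13509 normalized counts over the 12 libraries. It had 10177 and 9308 normalized counts in shIL1R cells on day 0, 10986 and 13509 on day 4 and 11847 and 8553 on day 10. The shScr counts were 9126 and 8842 on day 0, 11054 and 9491 on day 4 and 9703 and 10599 on day 10. The highest library was replicate 2 of shIL1R day 4 and the lowest replicate 2 of shIL1R day 10. The change by day 10 was 0.05 ± 0.15 (log2 fold change ± SE) in shIL1R cells (limma adjusted p = 0.793) and 0.18 ± 0.15 in shScr cells (adjusted p = 0.321). No comparison of days or genotypes reached a call for ATF4, which does not show that its level was equal, and protein was not measured.

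DDIT3 encodes CHOP, a C/EBP family factor that joins in the transcriptional programme of prolonged stress, and changed more than any other of the 40 genes by day 10. It had 549 and 626 normalized counts in shIL1R cells on day 0, 3428 and 8297 on day 4 and 8470.1 and 1936 on day 10. Counts in shScr cells were 476 and 478 on day 0, 3043 and 807 on day 4 and 5589.8 and 7557 on day 10. All 8 libraries of days 4 and 10 lay above all 4 of day 0, but the replicates of shIL1R day 4, shScr day 4 and shIL1R day 10 lay far apart. At day 10 DDIT3 rose by 2.79 ± 0.68 in shIL1R cells (adjusted p = 0.00434) and by 3.77 ± 0.68 in shScr cells (adjusted p = 0.000552). The value in shIL1R cells was 3.85 (adjusted p = 0.000267) without replicate 2 of day 10 and 1.72 (adjusted p = 0.0343) without replicate 1. DDIT3 was also called at day 4 in shIL1R cells, at 3.18 ± 0.68 (adjusted p = 0.00376), with 3.82 (adjusted p = 0.00786) without replicate 1 of that day and 2.55 (adjusted p = 0.04) without replicate 2. In shScr cells the day 4 value of 1.71 ± 0.68 missed the threshold (adjusted p = 0.0681). It was 0.76 (adjusted p = 0.472) without replicate 1 of that day and 2.67, a call (adjusted p = 0.0179), without replicate 2.

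TRIB3, a pseudokinase that binds ATF4 and restrains it, had its highest mean at day 10 in both genotypes, while that of DDIT3 in shIL1R cells was at day 4. TRIB3 had 1178 and 1349.6 normalized counts in shIL1R cells on day 0, 2529 and 5229 on day 4 and 11484 and 4001 on day 10. The shScr libraries held 889 and 872 on day 0, 3098 and 2035 on day 4 and 8187 and 8832 on day 10. The day 10 libraries of shScr cells lay above all earlier ones of that genotype, whereas replicate 2 of shIL1R day 10 lay below replicate 2 of shIL1R day 4. TRIB3 rose by 2.43 ± 0.42 in shIL1R cells at day 10 (adjusted p = 0.00049) and by 3.27 ± 0.42 in shScr cells (adjusted p = 4.74e-05). The shIL1R value was 3.19 (adjusted p = 9.97e-06) without replicate 2 of day 10 and 1.67 (adjusted p = 0.00136) without replicate 1.

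NUPR1, a small chromatin-associated stress protein, had 363 and 513 normalized counts in shIL1R cells on day 0, 642 and 860.5 on day 4 and 2582 and 1609 on day 10. With the scramble hairpin it had 354 and 267 on day 0, 387 and 315 on day 4 and 1300.4 and 921 on day 10. In both genotypes the day 10 libraries were above all others. NUPR1 rose by 2.24 ± 0.26 in shIL1R cells at day 10 (adjusted p = 2.9e-05, and 2.58 without replicate 2) and by 1.83 ± 0.26 in shScr cells (adjusted p = 0.000112). Most of this came after day 4, with 1.45 ± 0.26 between days 10 and 4 in shIL1R cells (adjusted p = 0.00185) and 1.64 ± 0.26 in shScr cells (adjusted p = 0.000624). Of the other regulators, ATF5, a factor related to ATF4 and likewise controlled in translation, dipped and recovered: at day 4 it fell by 0.59 ± 0.09 in shIL1R cells (adjusted p = 0.000746) and fell by 0.44 ± 0.09 in shScr cells (adjusted p = 0.00412). Between days 10 and 4 it rose by 0.81 ± 0.09 in shIL1R cells (adjusted p = 0.000142) and by 0.92 ± 0.09 in shScr cells (adjusted p = 3.94e-05). CEBPG, a heterodimer partner of ATF4, ranged from −0.43 to 0.22 in the 6 comparisons of days and was called in none.

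The plot of levels by day sets these regulators beside 9 of the genes described next, with every library shown.

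**Figure D2:**
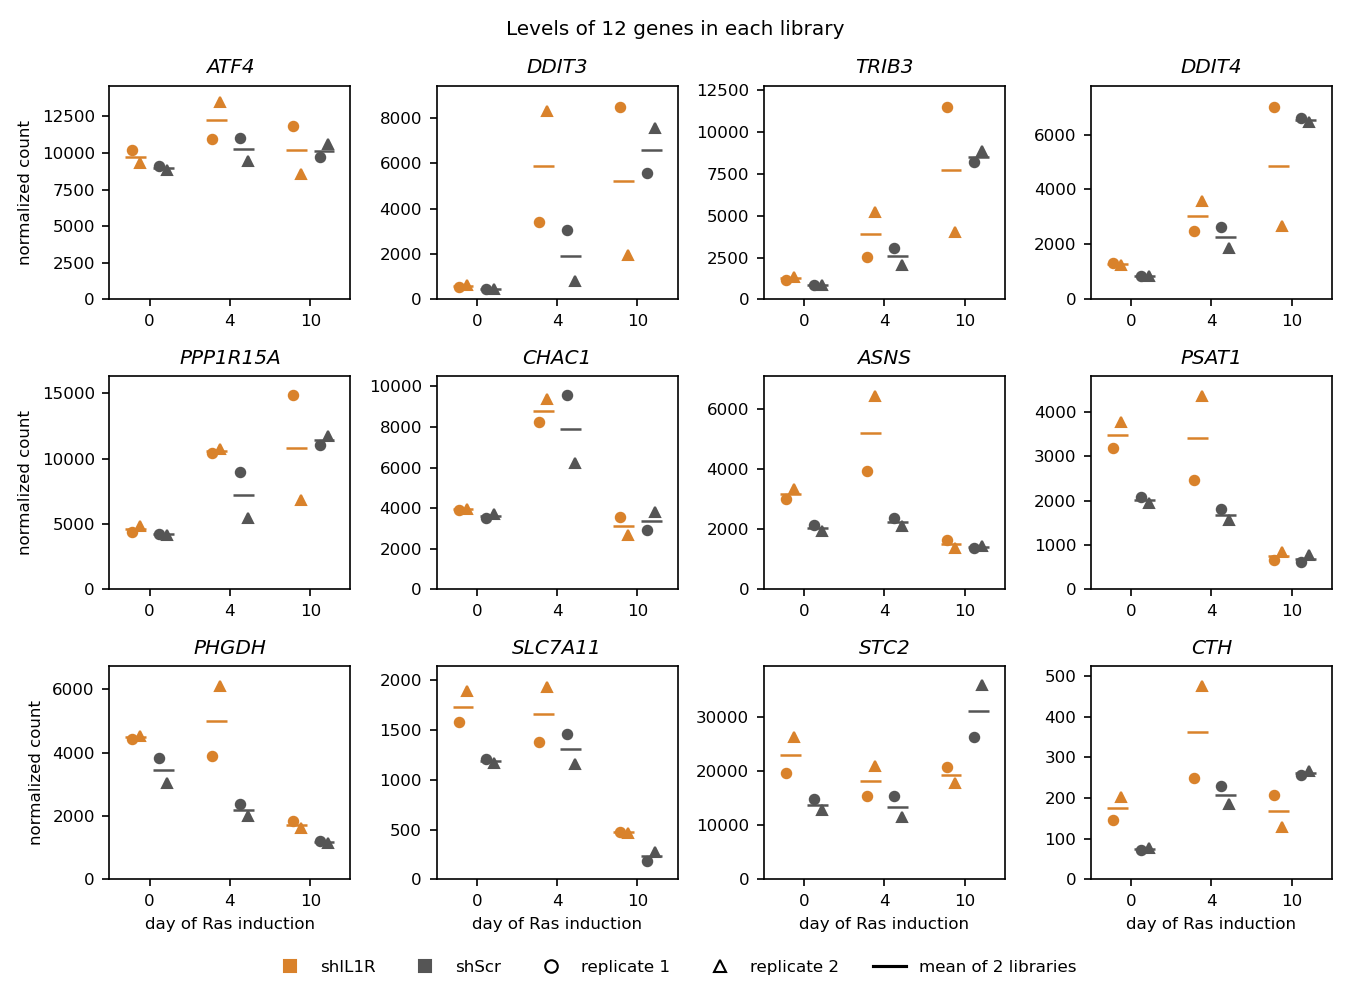
Normalized counts (y axis, from 0) of 12 of the genes by day of Ras induction (x axis) in shIL1R cells (orange) and shScr cells (grey), with 1 point per library and a line at the mean of 2 libraries. ATF4 stays between 8553 and 13509, DDIT3 and TRIB3 are lowest at day 0, CHAC1 is highest at day 4, and PSAT1, PHGDH and SLC7A11 are lowest at day 10.

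Of the 5 stress effectors 3 were higher at day 10 in shIL1R cells, also without replicate 2 of day 10, and 4 in shScr cells, and 0 were lower. DDIT4 (REDD1), an inhibitor of mTORC1 signalling, had 1318 and 1236 normalized counts in shIL1R cells on day 0, 2475 and 3574 on day 4 and 7017 and 2683 on day 10. In shScr cells it had 855 and 842 on day 0, 2642 and 1865 on day 4 and 6586 and 6449 on day 10. Replicate 2 of shIL1R day 10 was the 1 day 10 library within the range of the day 4 libraries. DDIT4 rose by 1.76 ± 0.34 in shIL1R cells at day 10 (adjusted p = 0.001) and by 2.94 ± 0.34 in shScr cells (adjusted p = 2.12e-05). The shIL1R value was 2.46 (adjusted p = 1.95e-06) without replicate 2 of day 10 and 1.07 (adjusted p = 0.00112) without replicate 1.

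PPP1R15A (GADD34) directs a phosphatase to eIF2 and so ends the translational block that raises ATF4. It had 4416 and 4841 normalized counts in shIL1R cells on day 0, 10452 and 10768 on day 4 and 14854 and 6807 on day 10. The shScr counts were 4261 and 4154 on day 0, 8955 and 5426 on day 4 and 11039 and 11752 on day 10. Every library of days 4 and 10 was above every day 0 library. PPP1R15A rose by 1.12 ± 0.29 in shIL1R cells at day 10 (adjusted p = 0.0067, and 1.68 without replicate 2) and by 1.44 ± 0.29 in shScr cells (adjusted p = 0.00133).

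SESN2, a sestrin that senses leucine and restrains mTORC1, had 1149 and 1090.5 normalized counts in shIL1R cells on day 0, 1369 and 2557 on day 4 and 2333 and 1489 on day 10. Counts in shScr cells were 914 and 901 on day 0, 1519 and 1326 on day 4 and 2096 and 2697 on day 10. In each genotype the day 10 libraries lay above the day 0 libraries. SESN2 rose by 1.39 ± 0.26 in shScr cells at day 10 (adjusted p = 0.000765). In shIL1R cells it rose by 0.74 ± 0.26 (adjusted p = 0.0309, and 0.00577 without replicate 2 of day 10), a call that was lost without replicate 1 of day 0 (adjusted p = 0.0834), replicate 2 of day 0 (adjusted p = 0.113) or replicate 1 of day 10 (adjusted p = 0.22), and without the filter on low values (adjusted p = 0.0507).

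CHAC1, which breaks down glutathione in the cytosol, followed another course and is singled out here after its values were seen. It had 3924 and 3970.4 normalized counts in shIL1R cells on day 0, 8244 and 9383 on day 4 and 3573 and 2663 on day 10. The shScr libraries held 3543 and 3698 on day 0, 9574 and 6207 on day 4 and 2925 and 3799.7 on day 10. All 4 day 4 libraries lay above the other 8. CHAC1 rose at day 4 by 1.16 ± 0.20 in shIL1R cells (adjusted p = 0.00101) and by 1.09 ± 0.20 in shScr cells (adjusted p = 0.00131). Between days 10 and 4 it fell by 1.51 ± 0.20 in shIL1R cells (adjusted p = 0.000246) and fell by 1.21 ± 0.20 in shScr cells (adjusted p = 0.000643). Its level at day 10 was not called against day 0 in shIL1R cells (−0.36 ± 0.20, adjusted p = 0.137) or in shScr cells (−0.12 ± 0.20, adjusted p = 0.613).

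Of 8 enzymes of amino acid synthesis 4 were lower and 0 higher in shIL1R cells at day 10 against day 0 (5 lower and 0 higher without replicate 2 of day 10), and 4 were lower and 1, CTH, was higher in shScr cells. PHGDH catalyses the first step of serine synthesis from glucose. It had 4426 and 4531 normalized counts in shIL1R cells on day 0, 3898 and 6101 on day 4 and 1832 and 1617 on day 10. With the scramble hairpin it had 3836 and 3039 on day 0, 2366 and 2011 on day 4 and 1218 and 1157 on day 10. The 4 day 10 libraries were the lowest of the 12. PHGDH fell by 1.38 ± 0.18 in shIL1R cells at day 10 (adjusted p = 6.18e-05, and −1.29 without replicate 2) and fell by 1.52 ± 0.18 in shScr cells (adjusted p = 2.48e-05).

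PSAT1, the aminotransferase of the second step, had 3192 and 3778 normalized counts in shIL1R cells on day 0, 2469.5 and 4353 on day 4 and 675 and 837 on day 10. In shScr cells it had 2089 and 1948 on day 0, 1822 and 1557 on day 4 and 610.1 and 772 on day 10. Again the 4 day 10 libraries were the lowest. PSAT1 fell by 2.21 ± 0.22 in shIL1R cells at day 10 (adjusted p = 9.32e-06, and −2.36 without replicate 2) and fell by 1.55 ± 0.22 in shScr cells (adjusted p = 0.000108). PSPH, the phosphatase of the last step, had 771 and 781 in shIL1R cells on day 0, 755 and 689.9 on day 4 and 311 and 348 on day 10. The shScr counts were 673 and 633 on day 0, 779 and 739 on day 4 and 248 and 233 on day 10. The day 10 libraries were again the lowest, and day 4 was called against day 0 in neither genotype (adjusted p = 0.453 in shIL1R cells and 0.121 in shScr cells). It fell by 1.24 ± 0.10 in shIL1R cells at day 10 (adjusted p = 2.17e-06, and −1.32 without replicate 2) and fell by 1.44 ± 0.10 in shScr cells (adjusted p = 5.52e-07).

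ASNS, asparagine synthetase, makes asparagine from aspartate and glutamine. It had 3003 and 3356 normalized counts in shIL1R cells on day 0, 3956 and 6453 on day 4 and 1645 and 1395 on day 10. Counts in shScr cells were 2153 and 1951 on day 0, 2396 and 2106 on day 4 and 1365 and 1434 on day 10. Day 10 was the lowest day in both genotypes, and the shIL1R day 4 libraries were the highest of all. ASNS fell by 1.07 ± 0.18 in shIL1R cells at day 10 (adjusted p = 0.000441, and −0.95 without replicate 2). In shScr cells it fell by 0.55 ± 0.18 (adjusted p = 0.0211). The shScr call was lost without replicate 1 of day 0 (adjusted p = 0.111), replicate 1 of day 10 (adjusted p = 0.0912) or replicate 2 of day 10 (adjusted p = 0.06).

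CTH, which makes cysteine from cystathionine, was the enzyme that rose in shScr cells. It had 147 and 202 normalized counts in shIL1R cells on day 0, 250.1 and 475 on day 4 and 209 and 129.8 on day 10. The shScr libraries held 73.5 and 78.4 on day 0, 229 and 185 on day 4 and 256 and 267 on day 10. The day 0 libraries of shScr cells were the lowest of the 12, and the shIL1R libraries of days 0 and 10 overlapped. CTH rose by 1.77 ± 0.30 in shScr cells at day 10 (adjusted p = 0.000335) and by 1.43 ± 0.30 at day 4 (adjusted p = 0.00334). In shIL1R cells the day 10 value was −0.07 ± 0.30 (adjusted p = 0.855, and 0.27 without replicate 2). CBS, which makes cystathionine, was low throughout, at 29.4 to 104 normalized counts over the 12 libraries, and was called in no comparison. The proline enzymes ALDH18A1 and PYCR1 were not called between days 10 and 0 in either genotype, with log2 fold changes from −0.21 to 0.17.

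The 4 mitochondrial enzymes of one-carbon and phosphoenolpyruvate metabolism all had their lowest mean at day 10 in both genotypes and their highest at day 4. At day 10 against day 0, 3 of 4 were lower in shIL1R cells, also without replicate 2 of day 10, and 2 of 4 in shScr cells, with 0 higher. ALDH1L2, a mitochondrial formyltetrahydrofolate dehydrogenase, had 2078 and 2285 normalized counts in shIL1R cells on day 0, 2424 and 2744 on day 4 and 1119 and 935 on day 10. With the scramble hairpin it had 1769 and 1556 on day 0, 1830.2 and 1785 on day 4 and 931 and 1169.7 on day 10. The day 10 libraries lay below all others. ALDH1L2 fell by 1.09 ± 0.13 in shIL1R cells at day 10 (adjusted p = 2.9e-05, and −0.96 without replicate 2) and fell by 0.67 ± 0.13 in shScr cells (adjusted p = 0.000886). PCK2, which makes phosphoenolpyruvate in mitochondria, fell by 0.94 ± 0.16 in shIL1R cells (adjusted p = 0.000426, and −0.96 without replicate 2), with −0.16 ± 0.16 in shScr cells (adjusted p = 0.394). MTHFD2, the mitochondrial folate dehydrogenase and cyclohydrolase, fell by 0.80 ± 0.18 in shIL1R cells (adjusted p = 0.00251, and −0.53 without replicate 2), with −0.23 ± 0.18 in shScr cells (adjusted p = 0.268). SHMT2, the mitochondrial serine hydroxymethyltransferase, fell by 0.31 ± 0.10 in shScr cells (adjusted p = 0.0226), a call lost without replicate 1 of day 0 (adjusted p = 0.148) or replicate 2 of day 10 (adjusted p = 0.13).

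Of the 5 amino acid transporters, 4 were lower and 1, SLC3A2, was higher in shIL1R cells at day 10 against day 0 (3 lower and 1 higher without replicate 2 of day 10), and 2 were lower and SLC3A2 was higher in shScr cells. SLC7A11 is the light chain of the cystine and glutamate exchanger and SLC7A5 (LAT1) that of a large neutral amino acid exchanger, and SLC3A2 (4F2hc) is the heavy chain both share. SLC7A11 had 1576 and 1894 normalized counts in shIL1R cells on day 0, 1384 and 1934 on day 4 and 476 and 471 on day 10. In shScr cells it had 1207 and 1170.0 on day 0, 1456 and 1159 on day 4 and 186 and 278 on day 10. The 4 day 10 libraries were the lowest, with those of shScr cells below those of shIL1R cells. SLC7A11 fell by 1.87 ± 0.20 in shIL1R cells at day 10 (adjusted p = 1.37e-05, and −1.86 without replicate 2) and fell by 2.38 ± 0.20 in shScr cells (adjusted p = 1.74e-06).

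SLC3A2 had 3716 and 3869 normalized counts in shIL1R cells on day 0, 6042 and 8811 on day 4 and 11011 and 4935 on day 10. The shScr counts were 3119 and 2785 on day 0, 5121 and 3262 on day 4 and 7931 and 6979 on day 10. All 8 later libraries lay above those of day 0 of their own genotype. SLC3A2 rose by 1.34 ± 0.32 in shScr cells at day 10 (adjusted p = 0.00339). In shIL1R cells it rose by 0.96 ± 0.32 (adjusted p = 0.0218, and 1.54 without replicate 2 of day 10), a call lost without replicate 1 of day 0 (adjusted p = 0.0847), replicate 2 of day 0 (adjusted p = 0.0693) or replicate 1 of day 10 (adjusted p = 0.204), and also when only the compared groups were fitted (adjusted p = 0.0683). SLC1A4, a carrier of alanine, serine and cysteine, had 1156 and 1229.9 in shIL1R cells on day 0, 639 and 940.2 on day 4 and 539.6 and 485 on day 10. Counts in shScr cells were 846 and 736 on day 0, 565 and 434 on day 4 and 431 and 421 on day 10. Its day 0 libraries were the highest within shIL1R cells and within shScr cells. SLC1A4 fell by 1.22 ± 0.18 in shIL1R cells at day 10 (adjusted p = 0.000124, and −1.14 without replicate 2) and fell by 0.89 ± 0.18 in shScr cells (adjusted p = 0.00103). The cationic amino acid carrier SLC7A1 fell by 0.82 ± 0.17 in shIL1R cells (adjusted p = 0.00154, and −0.68 without replicate 2), with −0.33 ± 0.17 in shScr cells (adjusted p = 0.107).

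The 12 cytosolic synthetases, each of which loads 1 or, for EPRS, 2 amino acids onto tRNA, changed by less. At day 10 against day 0 their log2 fold changes ran from −0.56 to 0.52 in shIL1R cells (2 called higher, 3 lower, median 0.04, and without replicate 2 of day 10 5 higher, 2 lower, median 0.19) and from −0.55 to 0.66 in shScr cells (6 higher, 1 lower, median 0.30). The largest rise in shScr cells was in the alanyl enzyme AARS, at 0.66 ± 0.19 (adjusted p = 0.00945, and 0.0544 without replicate 2 of day 0). The methionyl enzyme MARS fell by 0.56 ± 0.08 in shIL1R cells (adjusted p = 0.000156, and −0.49 without replicate 2) and fell by 0.55 ± 0.08 in shScr cells (adjusted p = 0.000172). The isoleucyl enzyme IARS rose by 0.57 ± 0.11 in shScr cells (adjusted p = 0.00123), with 0.14 ± 0.11 in shIL1R cells (adjusted p = 0.296). The cysteinyl enzyme CARS rose at day 4 by 0.63 ± 0.10 in shIL1R cells (adjusted p = 0.000539) and by 0.60 ± 0.10 in shScr cells (adjusted p = 0.000608). EPRS had 6225 and 6418 normalized counts in shIL1R cells on day 0, 7594 and 8175 on day 4 and 6951 and 5214 on day 10. The shScr libraries held 6439 and 6230.4 on day 0, 8156 and 7936 on day 4 and 7543 and 8780.3 on day 10. The leucyl enzyme LARS had 3143 and 3063 in shIL1R cells on day 0, 2881 and 3205 on day 4 and 2631 and 2233 on day 10. With the scramble hairpin it had 3197 and 3245 on day 0, 2943 and 2930.4 on day 4 and 2947 and 3120.2 on day 10. In shIL1R cells both genes had their lowest library in replicate 2 of day 10.

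**Figure D3:**
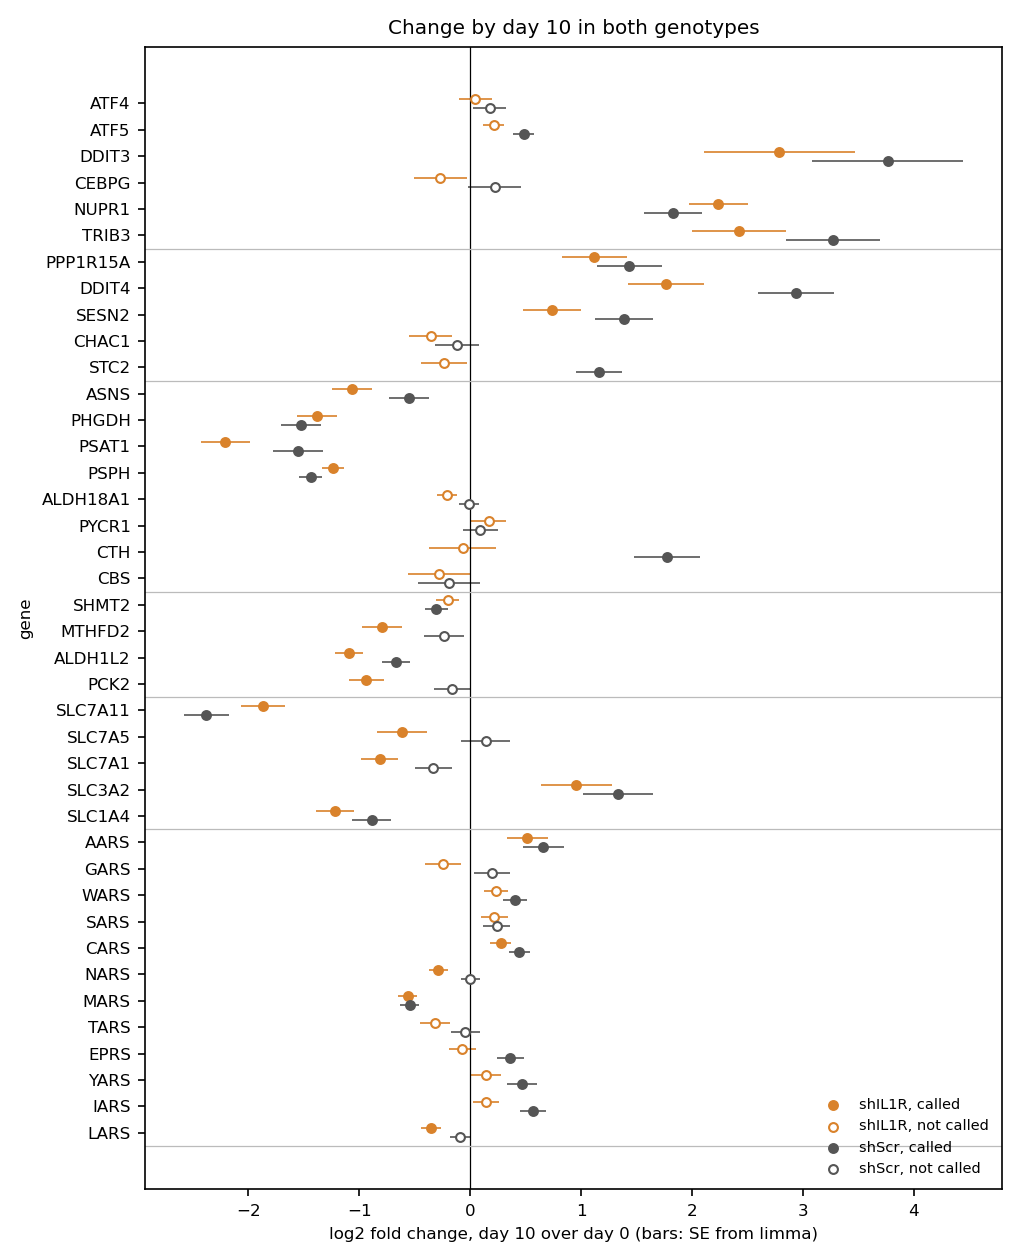
Log2 fold change at day 10 over day 0 (x axis, points with SE from limma) of the 40 genes (y axis, lines between roles) in shIL1R cells (orange) and shScr cells (grey), filled where the adjusted p was below 0.05. DDIT3 and TRIB3 lie farthest to the right and SLC7A11 and PSAT1 farthest to the left in both genotypes, and STC2 and CTH lie near 0 in shIL1R cells and above 1 in shScr cells.

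The plot of day 10 changes sets the genotypes side by side. The 2 sets of libraries behind it are separate, but 1 fit gave both a shared estimate of the spread. Calls in the 2 genotypes are therefore not independent. Called higher in both were 9 genes: DDIT3, NUPR1, TRIB3, PPP1R15A, DDIT4, SESN2, SLC3A2, AARS and CARS. Called lower in both were 8: ASNS, PHGDH, PSAT1, PSPH, ALDH1L2, SLC7A11, SLC1A4 and MARS. A further 7 were called higher in shScr cells and not in shIL1R cells, 6 were called lower in shIL1R cells and not in shScr cells, and 1, SHMT2, was called lower in shScr cells and not in shIL1R cells. ATF4, CEBPG, CHAC1, ALDH18A1, PYCR1, CBS, GARS, SARS and TARS were called in neither. Joint calls were not counted over all genes, so these numbers have no background. Of all genes 60.3% were called in shIL1R cells and 63.8% in shScr cells. In shIL1R cells the calls of AARS (adjusted p 0.091 to 0.285) and CARS (0.0752 to 0.166) were lost without either day 0 library or without replicate 1 of day 10. Those of NARS (0.0612 to 0.0767) and SLC7A5 (0.0963 to 0.293) were lost without either day 0 library or without replicate 2 of day 10. All 4 of these calls were also lost when only the compared groups were fitted (adjusted p 0.0658 to 0.0933), and those of AARS and SLC7A5 without the filter (0.0545 and 0.056). In shScr cells the call of WARS was lost without replicate 2 of day 0 (0.0508), that of YARS without replicate 2 of day 0 (0.074) or of day 10 (0.0745), and that of EPRS without either day 0 library or replicate 2 of day 10 (0.0649 to 0.167). A call in 1 genotype alone does not show that the genotypes differ, which is tested by the interaction below.

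Day 4 was the highest of the 3 days for many of these genes. By group means, 24 of the 40 genes (60%) were highest at day 4 in shIL1R cells and 17 (42.5%) in shScr cells, against 18.6% of all genes tested in each genotype. At day 4 against day 0, 18 of 40 genes were called in shIL1R cells (15 higher, 3 lower, median 0.32) where 40.4% of all genes were called (20.1% higher, 20.3% lower), and 14 in shScr cells (10 higher, 4 lower, median 0.19) where 38.3% were (19.4% higher, 18.9% lower). The medians over all genes were both −0.01. The counts fell with any 1 library of the compared groups left out, except replicate 1 of shIL1R day 4. Such fits leave 1 library in a group, and their shares of all genes called are not given here. In shIL1R cells the median was 0.25 without replicate 1 of day 0 and 0.33 without replicate 2 of day 0. It was 0.48 without replicate 1 of day 4 and 0.16 without replicate 2 of day 4. In shScr cells the medians of the same 4 fits were 0.24, 0.15, 0.12 and 0.30. The calls of ATF5, DDIT3, CHAC1 and CARS in shIL1R cells, and of ATF5, CHAC1, CTH and CARS in shScr cells, held without any 1 library and under every other setting.

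Between days 10 and 4, 23 of 40 genes were called in shIL1R cells, 2 higher and 21 lower (of all genes 35.9% were called, 17.6% higher and 18.3% lower), with a median of −0.40 against 0.01 over all genes. In shScr cells 22 were called, 11 higher and 11 lower (of all genes 44.1% were called, 21.7% higher and 22.4% lower), with a median of −0.02 against 0.01. Without replicate 2 of shIL1R day 4 the shIL1R count was 14 (2 higher, 12 lower), and without replicate 2 of shIL1R day 10 it was 20 (4 higher, 16 lower). The shScr count was 13 without replicate 2 of shScr day 4 (4 higher, 9 lower) and 13 without replicate 2 of shScr day 10 (5 higher, 8 lower). The genes that fell in both genotypes and held under every setting were CHAC1, PHGDH, PSAT1, PSPH, ALDH1L2, SLC7A11 and MARS, with log2 fold changes from −2.12 to −0.69 in shIL1R cells and from −2.51 to −0.52 in shScr cells. In shIL1R cells ASNS (−1.74 ± 0.18), MTHFD2 (−1.02 ± 0.18) and PCK2 (−1.25 ± 0.16) also fell and held under every setting. In shScr cells ASNS (−0.68 ± 0.18) and PCK2 (−0.45 ± 0.16) were called lower too and lost the call under some settings, and MTHFD2 was at −0.35 ± 0.18 (adjusted p = 0.131). The shares of all genes called with a library left out are not given here, so those counts have no background. The genotypes were not tested against each other in this comparison. These comparisons share the day 4 libraries with those against day 0 and are not separate evidence.

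The genotypes were compared within each day. At day 0, in growing cells, no gene of the 40 was called between shIL1R and shScr cells in limma, with 13 at an unadjusted p below 0.05. Over all genes 0.0646% were called. edgeR called 0 of the 40 and DESeq2 4 (STC2, PSAT1, CTH and PCK2, all higher in shIL1R cells). The 0.0646% is the share in limma, and the shares of all genes in edgeR and DESeq2 are not given here. The signs leaned one way: 38 of 40 log2 fold changes were positive, with a median of 0.28 against −0.01 over all genes. In 33 genes both shIL1R libraries lay above both shScr libraries, and in 1 they lay below, where all genes gave 23.5% above and 27.9% below. The largest differences were in CTH (1.17 ± 0.30, adjusted p = 0.238), PSAT1 (0.78 ± 0.22, adjusted p = 0.314), PCK2 (0.76 ± 0.16, adjusted p = 0.128) and STC2 (0.73 ± 0.21, adjusted p = 0.312), none of them called. With any 1 of the 4 day 0 libraries left out, 36 to 39 of the 40 values stayed positive.

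At day 4 ASNS and PHGDH were called higher in shIL1R cells and none lower, where 0.28% of all genes were called (0.0431% higher). The ASNS difference of 1.17 ± 0.18 (adjusted p = 0.0401) and the PHGDH difference of 1.16 ± 0.18 (adjusted p = 0.0401) rest on libraries listed above, in which both shIL1R day 4 libraries exceeded both shScr day 4 libraries. Both calls were lost without any 1 of 9 of the 12 libraries, namely the 4 of day 0, both of shScr day 4, replicate 2 of shIL1R day 4 and both of shScr day 10 (adjusted p 0.0728 to 0.263 for ASNS and 0.0675 to 0.263 for PHGDH). With any of these 9 left out the count of called genes was 0. Both calls were also lost without the filter (adjusted p = 0.0727 for each) and when only the compared groups were fitted (adjusted p = 0.161 for each). Without replicate 2 of shIL1R day 4 the ASNS difference was 0.82 and the PHGDH difference 0.84. Without replicate 1 of shIL1R day 4, 6 genes were called, and without either library of shIL1R day 10, 10 were. As the shares of all genes in these left-out fits are not given here, these counts cannot be set beside the 0.28%. Over the 40 genes 34 log2 fold changes were positive, with a median of 0.39 against 0.00 over all genes. The median was 0.20 without replicate 2 of shIL1R day 4.

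At day 10, 4 genes were called in limma, PSPH and SLC7A11 higher and EPRS and LARS lower in shIL1R cells, where 9.21% of all genes were called (4.37% higher, 4.85% lower). NUPR1, not called in limma, was called higher in shIL1R cells in edgeR (0.92, adjusted p = 0.0459) and in DESeq2 (0.92, adjusted p = 0.00669). DESeq2 also called STC2 lower (−0.69, adjusted p = 0.0113) and PHGDH higher (0.54, adjusted p = 0.041). The shares of all genes called in edgeR and DESeq2 are not given here. SLC7A11 was higher by 1.05 ± 0.20 (adjusted p = 0.0117). It dropped out of the calls without replicate 1 of shScr day 10, at 0.76 (adjusted p = 0.0508), and when only the compared groups were fitted (adjusted p = 0.103). PSPH was higher by 0.45 ± 0.10 (adjusted p = 0.024) and lost the call without replicate 2 of shScr day 10 (adjusted p = 0.173), without replicate 2 of shIL1R day 10 (adjusted p = 0.0855) and when only the compared groups were fitted (adjusted p = 0.299). EPRS was lower, at −0.43 ± 0.12 (adjusted p = 0.0488), and so was LARS, at −0.32 ± 0.09 (adjusted p = 0.0488). Both of these lost the call without any 1 of 11 of the 12 libraries, all but replicate 1 of shIL1R day 10 (adjusted p 0.0514 to 0.339 for EPRS and 0.0537 to 0.289 for LARS). They were also lost with the replicate number as a block (0.06 and 0.0619), in edgeR (0.052 and 0.0529), without the filter (0.0737 and 0.0661) and when only the compared groups were fitted (0.299 and 0.312). Without replicate 2 of shIL1R day 10 they stood at −0.23 and −0.20. The count of 4 became 15 (2 higher, 13 lower) without replicate 1 of shIL1R day 10, 1 without either library of shScr day 10, and 2 without replicate 2 of shIL1R day 10. Leaving out any 1 library of days 0 and 4 other than the shIL1R day 4 libraries also gave 2. The shares of all genes called with a library left out are not given here, so these counts cannot be set beside the 9.21%. The median over the 40 genes was −0.10, with 15 positive values. Without replicate 2 of shIL1R day 10 it was 0.16, with 27 positive values, so the direction of the list at day 10 turned with that library.

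**Figure D4:**
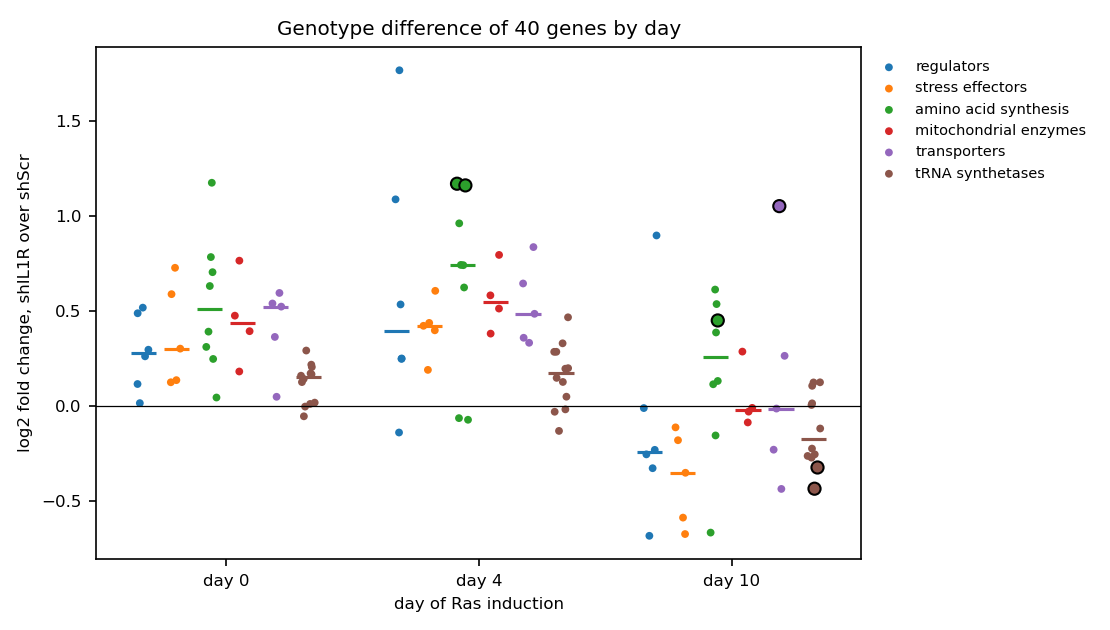
Log2 fold change of shIL1R over shScr (y axis) at days 0, 4 and 10 (x axis) for the 40 genes, 1 point each, coloured by role, with a bar at the median of each role and a black ring around called genes. At days 0 and 4 most points lie above 0, and at day 10 the points lie on both sides.

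The plot of genotype differences gives these values by role. At day 4 all 4 mitochondrial enzymes, all 5 transporters and all 5 stress effectors lay above 0, and at day 10 all 5 stress effectors lay below 0 with a median of −0.35. That median was 0.10 without replicate 2 of shIL1R day 10, with 3 of the 5 above 0. The medians of the amino acid synthesis enzymes were 0.51 at day 0, 0.74 at day 4 and 0.26 at day 10, and those of the synthetases 0.15, 0.17 and −0.17. Without that library the day 10 medians were 0.27 for the enzymes and 0.08 for the synthetases.

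Whether the response to Ras differed between the genotypes was tested as an interaction, the change from day 0 in shIL1R cells minus that in shScr cells. At day 4 limma, edgeR and DESeq2 each called 0 of the 40 genes, with 1 gene at an unadjusted p below 0.05, PHGDH at 0.77 ± 0.26. Over all genes 0.0287% were called. At day 10 STC2 and CTH were called, both with negative values. Both genes rose in shScr cells and were not called against day 0 in shIL1R cells. Over all genes 2.41% were called in this interaction (1.54% lower). STC2 encodes stanniocalcin 2, a secreted glycoprotein. It had 19697 and 26326 normalized counts in shIL1R cells on day 0, 15526 and 21003 on day 4 and 20829.8 and 17884 on day 10. In shScr cells it had 14819 and 12772 on day 0, 15434 and 11525 on day 4 and 26304 and 36012 on day 10. The day 10 libraries lay above the day 0 libraries in shScr cells, while the shIL1R libraries of those days overlapped. STC2 changed by −0.24 ± 0.21 in shIL1R cells (adjusted p = 0.339) and by 1.16 ± 0.21 in shScr cells (adjusted p = 0.000513), and the interaction was −1.40 ± 0.29 (adjusted p = 0.0348). It was lost without replicate 1 of shScr day 0 (adjusted p = 0.099), replicate 2 of shScr day 0 (0.158), replicate 2 of shIL1R day 0 (0.167), replicate 2 of shScr day 10 (0.161) or replicate 2 of shIL1R day 10 (0.0562), and without the filter (0.065).

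The CTH interaction was −1.84 ± 0.42 (adjusted p = 0.0485), from the values given above. It was lost without any 1 of 9 libraries, namely the 4 of day 0, both of shScr day 4, both of shScr day 10 and replicate 2 of shIL1R day 10 (adjusted p 0.0679 to 0.214), in edgeR (adjusted p = 0.0551), with the replicate number as a block (adjusted p = 0.0598) and without the filter (adjusted p = 0.0833). The difference in STC2 and in CTH between shIL1R and shScr cells at day 0 enters this test, as the day 0 values were higher in shIL1R cells for both genes. Without replicate 1 of shIL1R day 10, 14 genes were called, all negative, and without replicate 2 of it 0 were. Shares of all genes in these left-out fits are not given here, so these counts cannot be set beside the 2.41% of the full fit. Over the 40 genes 34 interactions at day 10 were negative, with a median of −0.32 against 0.01 over all genes. Without replicate 2 of shIL1R day 10, 28 were negative, with a median of −0.13.

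The 40 genes also moved together between the replicates of a group. In shIL1R cells at day 4, 38 of 40 were higher in replicate 2 (median log2 difference 0.33, against 0.00 over all genes), and in shScr cells at day 4 only 2 of 40 were, so that 38 were higher in replicate 1 (median −0.21 against −0.01). In shIL1R cells at day 10, 7 of 40 were higher in replicate 2 (median −0.27 against −0.01). At day 0, 31 of 40 were higher in replicate 2 of shIL1R cells and 6 of 40 in replicate 2 of shScr cells, with medians of 0.07 and −0.08. Between the shScr day 10 libraries 27 of 40 were higher in replicate 2 (median 0.10). With 2 libraries a group this spread has no test. IL1R1 was lowest of the 12 libraries in replicate 2 of shIL1R day 4, at 86.4. RNA45S5, a ribosomal RNA transcript, took 3.41% of replicate 2 of shScr day 4, the highest share of the 12 libraries, and 1.79% of its partner. HRAS had 41320.6 and 41404.6 normalized counts in shIL1R cells and 43044.4 and 43386.5 in shScr cells at day 0. At day 4 it had 19278.3 and 15522.6 in shIL1R cells and 29774.2 and 23749.6 in shScr cells. Its day 10 counts were 37518 and 25280.1 in shIL1R cells and 51790.5 and 50788.8 in shScr cells. On each day both shIL1R libraries lay below both shScr libraries. The part of these in the spread, and of HRAS in the genotype differences, was not tested.

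**Figure D5:**
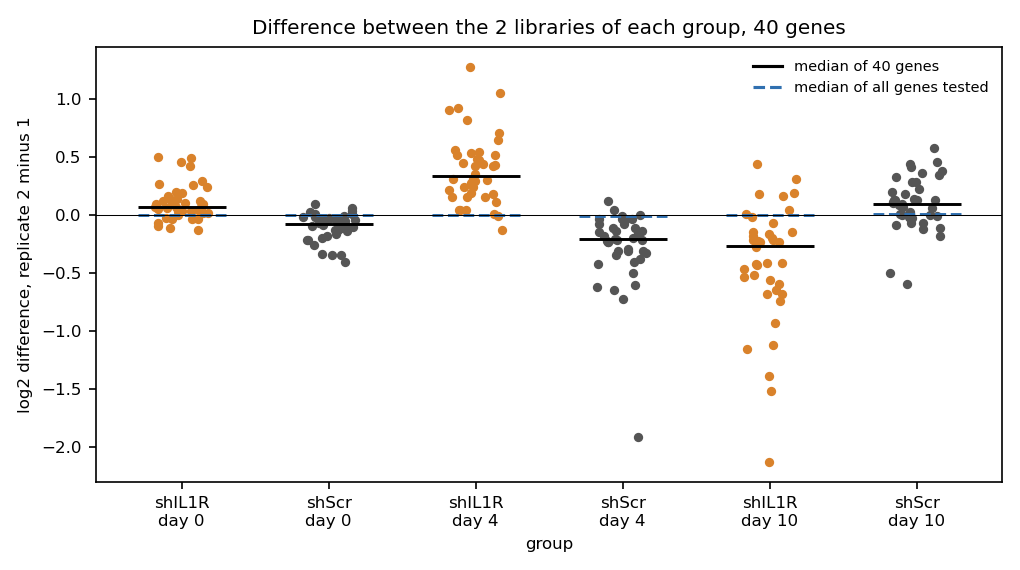
Difference on the log2(normalized count + 1) scale between replicates 2 and 1 (y axis) in each of the 6 groups (x axis), 1 point per gene for the 40 genes, with their median (black line) and the median of all genes tested (dashed blue line). In shIL1R day 4 38 of the 40 points lie above 0, and in shScr day 4 38 lie below.

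The plot of replicate differences shows that the genes with the widest gaps lay far from the medians: in shScr cells at day 4 DDIT3 stood at 3043 and 807, and in shIL1R cells at day 10 it stood at 8470.1 and 1936.

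The neighbouring branches of the stress response were counted in the same fits, where all genes tested gave 30% higher and 30.3% lower in shIL1R cells and 32.5% higher and 31.3% lower in shScr cells at day 10 against day 0. All 17 genes of the IRE1 and ATF6 branches of the unfolded protein response that were examined rose in shScr cells at day 10 (median 1.26), and 13 of 17 in shIL1R cells (median 0.78), or 17 of 17 without replicate 2 of shIL1R day 10 (median 1.19). In shScr cells the chaperone HSPA5 rose by 2.52 ± 0.52 (adjusted p = 0.00146), HERPUD1, a component of protein disposal from the endoplasmic reticulum, by 2.79 ± 0.68 (adjusted p = 0.00392), the co-chaperone DNAJB9 by 2.92 ± 0.48 (adjusted p = 0.000292) and the sensor ERN1 (IRE1) by 2.62 ± 0.29 (adjusted p = 1.35e-05). HSPA5 was uneven between replicates, with 44589 and 128517 normalized counts in shIL1R cells and 59683.5 and 34242.5 in shScr cells at day 4, and 198380 and 61620.2 in shIL1R cells and 155635 and 184102 in shScr cells at day 10. Each pair leans the same way as DDIT3 in the same libraries. Of 17 tested genes for the eIF2 kinases and the eIF2 and eIF2B machinery, 5 were higher and 3 lower in shIL1R cells, with and without that library, and 7 were higher and 5 lower in shScr cells, so the shares called higher in shIL1R cells were near the background. In shScr cells EIF2AK3 (PERK), the kinase of the endoplasmic reticulum, rose by 0.67 ± 0.22 (adjusted p = 0.0204), a call lost without replicate 1 of day 0 (adjusted p = 0.0734), replicate 2 of day 0 (adjusted p = 0.0757) or replicate 2 of day 10 (adjusted p = 0.191).

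Among 16 partners and relatives of ATF4 in the bZIP family, 5 were higher and 6 lower at day 10 in shIL1R cells (5 and 5 without that library), and 7 were higher and 4 lower in shScr cells. CEBPB, a main partner of ATF4, rose by 3.05 ± 0.27 in shScr cells (adjusted p = 2.84e-06) and ATF3, a stress-induced factor, by 2.98 ± 0.30 (adjusted p = 7.49e-06). Of 24 other genes reported to respond to ATF4 or to stress, 10 were higher and 4 lower in shIL1R cells (12 and 2 without that library), and 16 were higher and 3 lower in shScr cells. GDF15, a secreted stress cytokine, rose by 7.04 ± 0.46 in shScr cells (adjusted p = 2.67e-07), to 60121.5 and 57775.5 normalized counts at day 10 against 521 and 385 at day 0. TXNIP, an inhibitor of thioredoxin and of glucose uptake, fell by 4.33 ± 0.40 in shScr cells (adjusted p = 3.36e-06).

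The metabolic neighbours did not follow 1 direction, and counts in parentheses leave out replicate 2 of shIL1R day 10. Of 10 cytosolic synthetase genes and cofactors outside the list, 3 were higher and 5 lower in shIL1R cells (4 and 3), and 1 was higher and 6 lower in shScr cells (median −0.37), where the 12 listed synthetases had a median of 0.30. Of 16 mitochondrial synthetases, 2 were higher and 6 lower in shIL1R cells (3 and 5), and 2 were higher and 7 lower in shScr cells. Of 16 further folate and one-carbon genes, 2 were higher and 9 lower in shIL1R cells (2 and 8), and 3 were higher and 7 lower in shScr cells. In shScr cells SHMT1, the cytosolic counterpart of SHMT2, fell by 4.03 ± 0.26 (adjusted p = 2.79e-07). Of 19 other amino acid transporters, 8 were higher and 5 lower in shIL1R cells (8 and 5), and 10 were higher and 2 lower in shScr cells. Between the genotypes at day 10 the cationic amino acid carrier SLC7A2 fell by 1.56 ± 0.22 in shIL1R cells (adjusted p = 0.00339), with 591 and 657 normalized counts in shIL1R cells against 1859 and 1817 in shScr cells.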

How the data were processed

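The deposited table holds normalized counts per gene for 12 libraries, a signal in which each library's reads were divided by 1 factor. Per the submitters' processing notes, TopHat, HTSeq and DESeq2 were used with hg19, and versions, annotation and strand setting are not given in the sources used here. Divided by its library's smallest value above 0, 100% of values came out as whole reads (within 0.001), and depth was taken from these.

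The 13924 genes reaching 10 normalized counts in 2 or more libraries were fitted with limma 3.58.1 (R 4.3.3) on log2(value + 1), with group means over the 12 libraries and trended eBayes (6 residual degrees of freedom, 4.98 prior). In all, 11 comparisons were made, with two-sided p adjusted by Benjamini and Hochberg over all genes. The steps were tested on simulated data. Counts between genes are not per length, so levels are compared only within a gene. A fold change on this scale understates the change of low genes.

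The genes and lists were chosen with earlier results of these data known. Values in every library are given for ATF4 and for each listed gene called at day 10 against day 0 with a log2 fold change of at least 1 in size, or called between genotypes or in an interaction, and other lists name up to 4 called genes. Promoter windows are RefSeq's for GRCh38.p14 and no coordinate was converted. Alternatives were a pseudocount of 5, TMM rescaling, a filter of 50 or none, the replicate number as a block, the compared groups alone, edgeR 4.0.16 and DESeq2 1.42.0 on the recovered reads, and each library left out in turn.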

Additional observations from a re-analysis of the deposited data

Results flagged for a closer look

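STC2 and CTH were picked out because the change from day 0 to day 10 differed between the genotypes by the interaction test. For STC2 the change in shIL1R cells minus that in shScr cells was −1.40 on the log2 scale, and for CTH it was −1.84. The report gives the libraries behind both values. Both calls were lost when single libraries were left out.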

How the results depend on the processing

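The lowest level among these genes was 29.4 normalized counts (29 reads), in CBS. Whether depth limited the calls of such low genes was not tested. Each group held only 2 libraries, which limited all comparisons. No called value changed sign under any alternative run. The number of the 40 genes called stayed within 1.5 times of that reported under a pseudocount of 5, a filter of 50 and TMM rescaling in every comparison. It moved for shIL1R against shScr at day 0 to 4 with DESeq2. At day 4 it moved to 10 with DESeq2, and to 0 without the filter or with the compared groups alone. At day 10 it moved to 7 with DESeq2, 2 without the filter or with the replicate block, and 0 with the compared groups alone. For the interaction at day 10 it moved to 1 with edgeR or the replicate block and to 0 without the filter. For shIL1R day 10 against day 4 it moved to 13 with the compared groups alone. The causes were not tested, beyond the fewer libraries or more genes that these settings use. The shares of all genes called by DESeq2 are not given here, so its counts have no background.

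With each library left out in turn the counts ran from 17 to 25 for shIL1R day 10 against day 0, 14 to 29 for shIL1R day 10 against day 4, and 5 to 23 for shIL1R day 4 against day 0. They ran from 21 to 26 for shScr day 10 against day 0, 13 to 25 for shScr day 10 against day 4, and 6 to 19 for shScr day 4 against day 0. Between genotypes they ran from 0 to 0 at day 0, 0 to 10 at day 4 and 1 to 15 at day 10. They ran from 0 to 0 for the interaction at day 4 and 0 to 14 at day 10.

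For the genotype and interaction comparisons the shares of all genes called with a library left out are not given, so those counts have no background. With shIL1R against shScr at day 10, 1283 genes of all tested were called, and 73 were with the compared groups alone.

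Over all genes the replicate numbers gave no clear pairing across all groups. Of 15 pairs of groups, 4 had a correlation of deviations over 0.1 (range −0.10 to 0.23). The 2 largest lay within shIL1R cells, at 0.23 for days 0 and 4 and 0.20 for days 4 and 10, with 0.05 for days 0 and 10. Taken over the genes described here alone, the correlations were larger in size and mixed in sign. They ran from −0.60 (shScr day 4 and shIL1R day 4) to 0.73 (shScr day 4 and shIL1R day 10). For these genes shScr days 0 and 10 gave 0.51. Within shIL1R cells they gave 0.29 for days 0 and 4, −0.50 for days 4 and 10 and 0.13 for days 0 and 10. A block shared by both genotypes cannot test a replicate effect in shIL1R cells alone, so such an effect was not tested. With the replicate number as a block the count was 24 for shIL1R day 10 against day 0, 25 for shScr day 10 against day 0, 23 for shIL1R day 10 against day 4, 22 for shScr day 10 against day 4, 16 for shIL1R day 4 against day 0 and 12 for shScr day 4 against day 0. Between genotypes the block gave 0 at day 0, 2 at day 4 and 2 at day 10, and it gave 0 and 1 for the interactions at days 4 and 10. The shares of all genes called with the block are not given here.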
